A study of Mus musculus with 12 samples.

Results

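Malat1, Kcnq1ot1, Neat1, Miat, Gas5 and Snhg1 are 6 long noncoding RNAs, of which the first 4 stay largely in the nucleus and the last 2 are host genes of small nucleolar RNAs. They were taken by symbol from 22609 genes counted in 12 RNAseq libraries of ANS cells, an adherent and self-renewing neural stem cell culture taken from E14.5 mouse brain that can be driven towards GABAergic neurons. The members were chosen by name with these counts in view, and the values behind the choice were the CPM (counts scaled to a common library size) of Malat1 and Kcnq1ot1, which differed widely between libraries of a single time point. That spread is therefore described below without a test, and the question taken to the tests is whether any of the 6 RNAs differed between time points.

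T0 held proliferating cells in growth medium with 20 ng/ml FGF2, 20 ng/ml EGF and 1% N2 (3 libraries, replicates 1 to 3). At T1, cells had spent 2 days in medium D1, where FGF2 was 10 ng/ml, EGF 2 ng/ml, N2 0.5% and B27 1% (replicates 1 to 3). T2 followed 2 days after the change to medium B, which holds 10 ng/ml FGF2, 0.5% N2, 1% B27 and, in place of EGF, 20 ng/ml BDNF (replicates 1 to 4), and T3 followed 10 days after it (replicates 1 and 4). All groups are ANS cells, with no strain, genotype or further treatment named in the labels. The methods call the samples biological replicates, whereas the labels do not tie a number to a culture. If libraries share a culture, the p-values measure a spread that is partly technical.

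A nuclear long noncoding RNA is made by RNA polymerase II like an mRNA but acts, as far as is known, as an RNA. Malat1 is an abundant RNA of nuclear speckles, the compartments where splicing factors gather. Neat1 is the scaffold of paraspeckles, and its gene lies beside Malat1. Miat, also named Gomafu, is a nuclear RNA of the nervous system that carries repeats of the branch point motif to which the splicing factors SF1 and QKI bind. Kcnq1ot1 is the imprinted antisense RNA that silences genes of the Kcnq1 domain on the paternal chromosome. Gas5 and Snhg1 carry small nucleolar RNAs in their introns, and their spliced RNAs open with a terminal oligopyrimidine (TOP) tract, the element that ties translation of ribosomal mRNAs to growth signals. Such host RNAs are translated briefly and then degraded by nonsense-mediated decay.

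The motif copies of Miat are shown first, since they set it apart in sequence from Malat1, Neat1, Gas5 and Snhg1. Kcnq1ot1, which had no annotated transcript here, was not searched. On NCBIM37 (mm9), Miat spans 112642248 to 112657968 on the minus strand of chromosome 5, and its annotated transcript of 8760 bases has 7 exons. The motif TACTAAC, searched on the transcript strand, occurred 6 times, always in exon 7. Each line below gives 30 bases of the genome, read on the minus strand, with the motif in capitals.
Miat copy 1: tgtgattaaccTACTAACcaacccagggct
Miat copy 2: cgagcatgtccTACTAACcccgcagcagcc
Miat copy 3: cagccaaacccTACTAACtctgcaggccag
Miat copy 4: tgatgctgtgcTACTAACccggccctacta
Miat copy 5: taacccggcccTACTAACtggtttctcttc
Miat copy 6: gtttctcttctTACTAACccagccctgccg
Copy 1 lies at chr5:112646452-112646481 and copy 6 at chr5:112645770-112645799, and the windows of copies 2 and 3 overlap, as do those of copies 4, 5 and 6. The motif starts at transcript positions 4538, 4638, 4663, 5186, 5200 and 5220. Among 16824 windows of 8760 bases on the same strand of chromosome 5, 26.63% held the motif at least once and 0.01189% held at least 6 copies. The longest annotated transcripts of Malat1, Gas5 and Snhg1 held 0 copies, and Neat1 held 1 in 20771 bases.

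The starts of the host genes are shown because the TOP tract is read from them. Gas5 lies on the plus strand of chromosome 1 (162964553 to 162968670, up to 12 exons) and Snhg1 on the plus strand of chromosome 19 (8797986 to 8800932, up to 4 exons). The RefSeq starts, given for GRCm38, were matched to NCBIM37 by sequence, and capitals mark the longest run of C or T in the first 30 bases.
Gas5 start 2: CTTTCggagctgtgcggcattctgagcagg
Snhg1: ctcaTTTTTCCTTgttcggggtaagtactc
Gas5 start 2 (chr1:162965297-162965326) opened with 5 pyrimidines. In Snhg1 (chr19:8797977-8798006) the longest run had 9 pyrimidines and began at position 5. The other RefSeq start of Gas5 held a longest run of 3. An opening run was not particular to the host genes, since the RefSeq start of Miat opened with 6 pyrimidines and that of Snhg1 with 3. The longest run was 3 in Malat1, 4 in Kcnq1ot1 and, from the annotated start of the gene, 5 in Neat1. A run of this kind is a description of letters, and no start site was mapped with these libraries.

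Malat1 (chromosome 19, minus strand, 5795690 to 5802671) and Neat1 (chromosome 19, minus strand, 5824708 to 5845478) are neighbours, 22036 bases apart. The longest Malat1 transcript is a single exon of 6982 bases. Its longest run of A is shown since the libraries were made from polyadenylated RNA. Which form of Malat1 entered the libraries, and by which stretch of A, was not tested. Capitals mark the run.
Malat1 A run: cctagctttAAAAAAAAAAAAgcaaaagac
The window lies at chr19:5795979-5796008 and holds a run of 12 A, whose first base is 310 bases from the annotated 3′ end. Runs of at least 12 A were found in 36.16% of 8324 windows of 6982 bases on chromosome 19. Kcnq1ot1 starts at position 150482452 of chromosome 7 on the minus strand, by the match of its RefSeq start, and was not in the annotation of NCBIM37 used here.

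The counts on genes ranged from 8910724 to 16631614 per library (median 12601169). Reads that fell on no gene made up 13.3% to 24.06% of the uniquely aligned reads (median 19.69%), lowest in T0 replicate 3. That library stood apart. The deviations of its log2 CPM from the T0 mean correlated over 12952 genes at r = -0.92 and r = -0.91 with those of replicates 1 and 2, which correlated with each other at r = 0.68. With 3 libraries in a group such deviations are tied to each other, so these values describe which library lies opposite to the other two. The summed level of 5 astrocyte markers was 74.56 CPM in T0 replicate 3 against 656.8 and 679.2 CPM in replicates 1 and 2, with Gfap at 0.494 CPM. The 8 progenitor markers summed to 9652 CPM there and to 7499 and 6864 CPM in the others. That order did not hold for each marker. With that library left out, the log2 difference of T1 from T0 went from 0.66 to 1.37 for Fabp7. For Sox2 it went from 0.30 to -0.00078 and for Hes5 from -1.75 to -2.02, so that Sox2 and Hes5 were lower in T0 replicate 3. Microglial markers summed to at most 0.387 CPM and endothelial markers to at most 2.68 CPM in any library. Against T0, the neuronal markers that could be tested all rose at T1 (4 genes) and T2 (5 genes), while 3 of 5 did so at T3 (4 of 5 without T0 replicate 3). Dcx, a microtubule protein of migrating neurons, had 369.3 ± 53.2 CPM at T2 (SD, n = 4) against 5.54 ± 3.35 CPM at T0 (n = 3), whereas Stmn2 stayed at 0.108 CPM or below. In bulk RNA, fewer cells of a type and less RNA per cell cannot be told apart. Comparisons of the members with T0 are given with and without T0 replicate 3, as are the calls in the gene lists.

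All 6 RNAs passed the filter on low counts in every comparison, and 5 were listed in the FPKM table, which holds 34993 identifiers. Kcnq1ot1 was not among those identifiers. Levels of different genes can be compared only per length, as in FPKM (fragments scaled to transcript length and library depth). Averaged over the 12 libraries, Gas5 stood at 302.1 FPKM (rank 187) and Malat1 at 261.5 FPKM (rank 227). Neat1 had 102.5 FPKM (rank 832), Miat 17.03 FPKM (rank 5869) and Snhg1 14.44 FPKM (rank 6523). The order of Gas5 and Malat1 was not stable between libraries, since Malat1 ranged from 38.81 to 652.6 FPKM and Gas5 from 240.6 to 362.1 FPKM. At T0 Snhg1 lay above Miat in all 3 libraries, and at T1 and T2 Miat lay above Snhg1 in all 7. Miat had 1.841 ± 1.562 FPKM at T0 (SD, n = 3) and 24.18 ± 6.389 FPKM at T2 (n = 4), while Snhg1 had 18.98 ± 5.14 and 12.85 ± 1.867 FPKM. The T3 libraries were split, with Miat at 34.66 and Snhg1 at 13.19 FPKM in replicate 1 and at 7.699 and 16.16 FPKM in replicate 4.

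Miat showed the widest difference between time points. It had 36.17, 33.21 and 0.4942 CPM in the T0 libraries, the last of these from 7 counts. At T1 it had 266.9, 287.7 and 191.7 CPM, and at T2 341.9, 363, 377.9 and 203 CPM. The 2 T3 libraries had 456.7 and 116.9 CPM. Every library of T1, T2 and T3 therefore lay above every T0 library. Markers of the oligodendrocyte lineage moved in the same libraries as a sum, though not each on its own. Their summed level over 5 genes was 45.66, 40.96 and 6.708 CPM at T0, 99.78 to 206.2 CPM at T1, 156.1 to 209.6 CPM at T2, and 257.3 and 76.96 CPM in T3 replicates 1 and 4. Pdgfra, a receptor of oligodendrocyte precursors, made up most of the later sums and rose by 2.83 on the log2 scale at T1 (adjusted p = 0.0226, edgeR) and by 3.02 at T2 (adjusted p = 0.00392), 1 of 3 tested markers at T1 and, with Mog, 2 of 4 at T2. Sox10 did not exceed 0.676 CPM in any library after T0. Without T0 replicate 3, Pdgfra rose and Sox10 fell at T1, T2 and T3 (edgeR), and Mog rose at T2. Sox10 then fell by 2.935 at T1 (adjusted p = 3.44e-04, edgeR) and by 2.68 at T2 (adjusted p = 2.81e-04). The 6 neuronal markers summed to 894.3 to 961.4 CPM at T0 and to 2029 to 2629 CPM at T1 and T2. T3 replicates 1 and 4 had 2705 and 1700 CPM. The part of either cell type in the level of Miat was not tested.

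Against T0, Miat rose by 3.40 on the log2 scale at T1 (SE 1.03, adjusted p = 0.0428, edgeR) and by 3.79 at T2 (SE 0.94, adjusted p = 0.0125), folds of 10.6 and 13.8. At T3 the log2 difference was 3.63 (SE 1.33) and did not pass the threshold of 0.05 (adjusted p = 0.156). When T0 replicate 3 was left out, the differences were smaller and their errors shrank. Miat then rose by 2.83 at T1 (SE 0.18, adjusted p = 5.33e-06), by 3.21 at T2 (SE 0.25, adjusted p = 7.36e-06) and by 3.06 at T3 (SE 0.66, adjusted p = 0.0381). The T1 call was lost when T0 replicate 1 or 2 or any T1 library was left out (adjusted p 0.0651 to 0.122), with log2 differences of 3.30 to 3.86. The T2 call held without each of the 7 libraries in turn. The later steps gave no call, with a log2 difference of 0.37 for T2 against T1 (adjusted p = 0.545) and of -0.16 for T3 against T2 (adjusted p = 0.91). Without T3 replicate 1 the latter became -1.45 (adjusted p = 0.0265), and without T3 replicate 4 it became 0.51 (adjusted p = 0.473). T3 is then a single library, assumed to vary like those of T2.

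Snhg1 was lower at T1 and T2 than at T0. The T0 libraries had 58.74, 55.36 and 61.43 CPM. They were followed by 40.01, 33.91 and 45.69 CPM at T1 and by 49.08, 39.94, 42.05 and 39.09 CPM at T2. The 2 T3 libraries had 48.43 and 60.44 CPM. No library of T1 or T2 reached the lowest T0 value, whereas T3 replicate 4 lay among the T0 libraries.

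By edgeR, Snhg1 fell by 0.56 on the log2 scale at T1 (SE 0.14, adjusted p = 0.0253) and by 0.46 at T2 (SE 0.12, adjusted p = 0.0135), to 0.677 and 0.729 of the T0 level. The T3 difference was -0.09 (SE 0.17, adjusted p = 0.761). With T0 replicate 3 left out, Snhg1 fell by 0.52 at T1 (adjusted p = 0.00824) and by 0.42 at T2 (adjusted p = 0.00761), and at T3 the difference was -0.06 (adjusted p = 0.799). The T2 call held without each library in turn, while the T1 call was lost without T0 replicate 1 or 2 or T1 replicate 1 or 2 (adjusted p 0.0507 to 0.0971, log2 -0.60 to -0.45). On the FPKM scale Snhg1 was not called, with log2 differences of -0.61 at T1 (adjusted p = 0.077, limma) and -0.51 at T2 (adjusted p = 0.0739, limma). For T3 against T2 the log2 difference was 0.36 (adjusted p = 0.232, edgeR).

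Gas5, the other host gene, differed from T0 in the opposite direction and by less. Its T0 libraries had 103.4, 92.65 and 104.6 CPM, against 113.8, 116.3 and 132.5 CPM at T1. The T2 libraries had 121.5, 119.2, 130.6 and 130.1 CPM and the T3 libraries 132.1 and 140.5 CPM. No library after T0 was as low as the highest T0 library.

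The rise of Gas5 passed the threshold at T2, by 0.33 on the log2 scale (SE 0.10, adjusted p = 0.0246, edgeR), a fold of 1.25. At T1 the log2 difference was 0.26 (SE 0.11, adjusted p = 0.12) and at T3 0.46 (SE 0.14, adjusted p = 0.113). Without T0 replicate 3, Gas5 rose in all of these comparisons, by 0.29 at T1 (adjusted p = 0.0346), 0.36 at T2 (adjusted p = 0.0062) and 0.49 at T3 (adjusted p = 0.0447). The T2 call was lost without T0 replicate 1 or 2 or T2 replicate 1, 3 or 4 (adjusted p 0.0548 to 0.0974), with log2 differences of 0.27 to 0.35. It was also lost with no filter on low counts (adjusted p = 0.063). On the FPKM scale Gas5 was not called in any comparison.

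Since both host genes were counted in the same libraries, their ratio needs no library size. Gas5 had 1.761, 1.674 and 1.703 counts for each Snhg1 count in the T0 libraries. The ratio was 2.845, 3.429 and 2.899 at T1. At T2 it was 2.476, 2.984, 3.107 and 3.327, and at T3 2.729 and 2.325. The T0 libraries, replicate 3 included, lay close together and below all 9 other libraries. For T1 and T2 this order follows from the separate levels of Gas5 and Snhg1 given above, so the ratio is no further evidence of a difference there. The plot of count ratios shows this beside the ratio of Malat1 to Neat1, in which the libraries of T0 and the later time points overlapped.

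**Figure D1:**
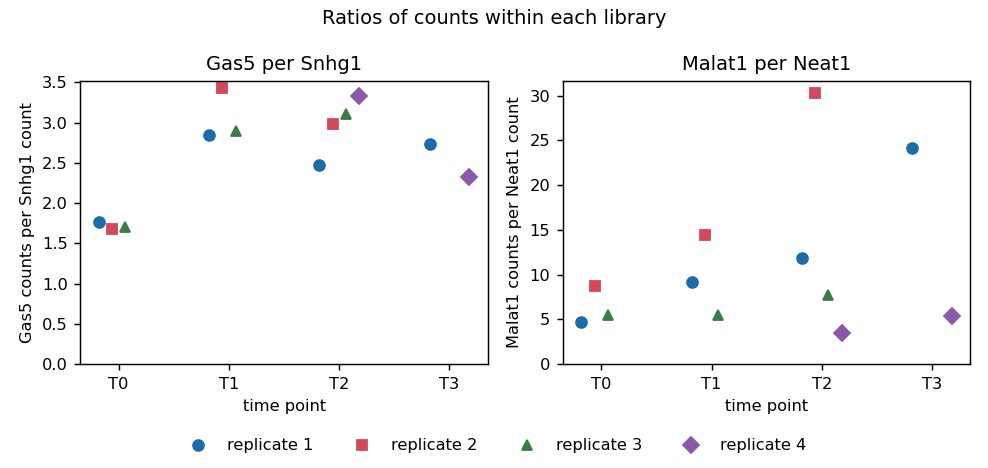
Counts of Gas5 per count of Snhg1 (left) and of Malat1 per count of Neat1 (right) in each library, by time point, with the replicate number as colour and shape and both axes starting at 0. On the left the 3 T0 libraries sit between 1.674 and 1.761, below the other libraries, and on the right replicate 2 is highest at T0, T1 and T2, up to 30.28.

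For Neat1, the T0 libraries fell on both sides of all later ones. The T0 libraries had 340.7, 288.3 and 48.58 CPM. The T1 libraries had 161.1, 164.9 and 158.8 CPM and differed by a factor of 1.039 at most. Levels were 168.6, 129.2, 218.8 and 151.4 CPM at T2 and 137.8 and 152.4 CPM at T3. Replicates 1 and 2 of T0 lay above every later library, and T0 replicate 3 below every one.

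With all libraries, Neat1 passed in no comparison. The log2 differences from T0 were -0.49 at T1 (SE 0.60, adjusted p = 0.547), -0.43 at T2 (SE 0.53, adjusted p = 0.53) and -0.63 at T3 (SE 0.75, adjusted p = 0.629). Without T0 replicate 3, Neat1 fell by 0.97 at T1 (SE 0.09, adjusted p = 3.93e-05), by 0.91 at T2 (SE 0.17, adjusted p = 0.0017) and by 1.11 at T3 (SE 0.13, adjusted p = 0.0136). Without T0 replicate 1 the log2 difference at T1 was -0.08 and at T2 -0.01. The deposited FPKM of Neat1 followed another order in T0, with 221, 95.98 and 52.61 FPKM, and on the FPKM scale the log2 difference at T3 was 0.34 (adjusted p = 0.736, limma). The FPKM of Neat1 in the T2 libraries was 127.7, 96.93, 93.15 and 67.1.

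Malat1 was the member with most counts, 3733 to 42114 per library and 0.0245% to 0.391% of all counts on genes. It had 1598, 2510 and 263.6 CPM at T0 and 1472, 2387 and 867 CPM at T1. At T2 it had 1995, 3912, 1692 and 522.7 CPM, and at T3 3334 and 811.7 CPM. Replicate 2 was highest and replicate 3 lower than replicates 1 and 2 at each of T0, T1 and T2, and replicate 4 was lowest at both T2 and T3. The number of T3 replicate 4 follows the labels, but its deposited data are named with an extra 2 that the labels do not explain, so what follows from its number is uncertain. The libraries of all time points overlapped.

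The means of Malat1 were 1457 ± 1130 CPM at T0 (SD, n = 3), 1575 ± 765 at T1 (n = 3), 2030 ± 1406 at T2 (n = 4) and 2073 ± 1783 at T3 (n = 2). The log2 differences from T0 were 0.10 (SE 0.73, adjusted p = 0.931), 0.48 (SE 0.77, adjusted p = 0.635) and 0.52 (SE 0.96, adjusted p = 0.761). Leaving out T0 replicate 3 gave -0.40, -0.02 and 0.03. The T0 libraries alone covered 9.52-fold, and the sign of the differences turned with the fit. In a fit of all 12 libraries with the replicate number as a block, Malat1 was higher than at T0 by 1.08 at T2 (SE 0.39, adjusted p = 0.0469) and by 1.55 at T3 (adjusted p = 0.0514), although the numbers did not pair T0 with T1 or T2. Between T1 and T2 the deviations of same-numbered libraries correlated over 12952 genes (r = 0.20, 0.34 and 0.17). T1 replicate 3, however, correlated more with T2 replicate 4 (r = 0.37) than with T2 replicate 3. The numbers therefore do not settle which libraries are partners. With the number as a replicate block, Malat1 rose from T1 to T2 by 0.71 on the log2 scale (SE 0.11, adjusted p = 0.0279), against 0.37 without the block (adjusted p = 0.847). In the fit of all 12 libraries with the block the difference was also 0.71 but did not pass (SE 0.38, adjusted p = 0.792), and this step was called in 1 of 20 settings. No T1 library shares the number of T2 replicate 4, so the blocked value rests on 3 pairs by number, and all 3 had more CPM at T2.

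Kcnq1ot1 had 110 to 821 counts per library. Its levels were 31.84, 32.31 and 7.767 CPM at T0 and 39.92, 44.16 and 25.68 CPM at T1. At T2 they were 31.3, 72.45, 27.79 and 24.92 CPM, and at T3 68.32 and 32.27 CPM. T0 replicate 3 was lowest of all and T2 replicate 2 highest. The remaining libraries of the time points overlapped.

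In the fits of the time points compared, Kcnq1ot1 passed in no comparison with all libraries. The log2 differences from T0 were 0.60 at T1 (SE 0.50, adjusted p = 0.388), 0.71 at T2 (SE 0.53, adjusted p = 0.31) and 1.08 at T3 (SE 0.64, adjusted p = 0.335), and without T0 replicate 3 they were 0.17, 0.28 and 0.67 (adjusted p = 0.505, 0.559 and 0.239). In the fit of all 12 libraries with the replicate block, Kcnq1ot1 was called higher than at T0 at T2, by 0.97 (SE 0.31, adjusted p = 0.0299), and at T3, by 1.46 (SE 0.39, adjusted p = 0.0288). Kcnq1ot1 is antisense to Kcnq1, and counting with a kit that does not mark strand cannot tell the reads of the RNAs apart. Kcnq1, a potassium channel gene, had 7 counts over all 12 libraries.

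**Figure D2:**
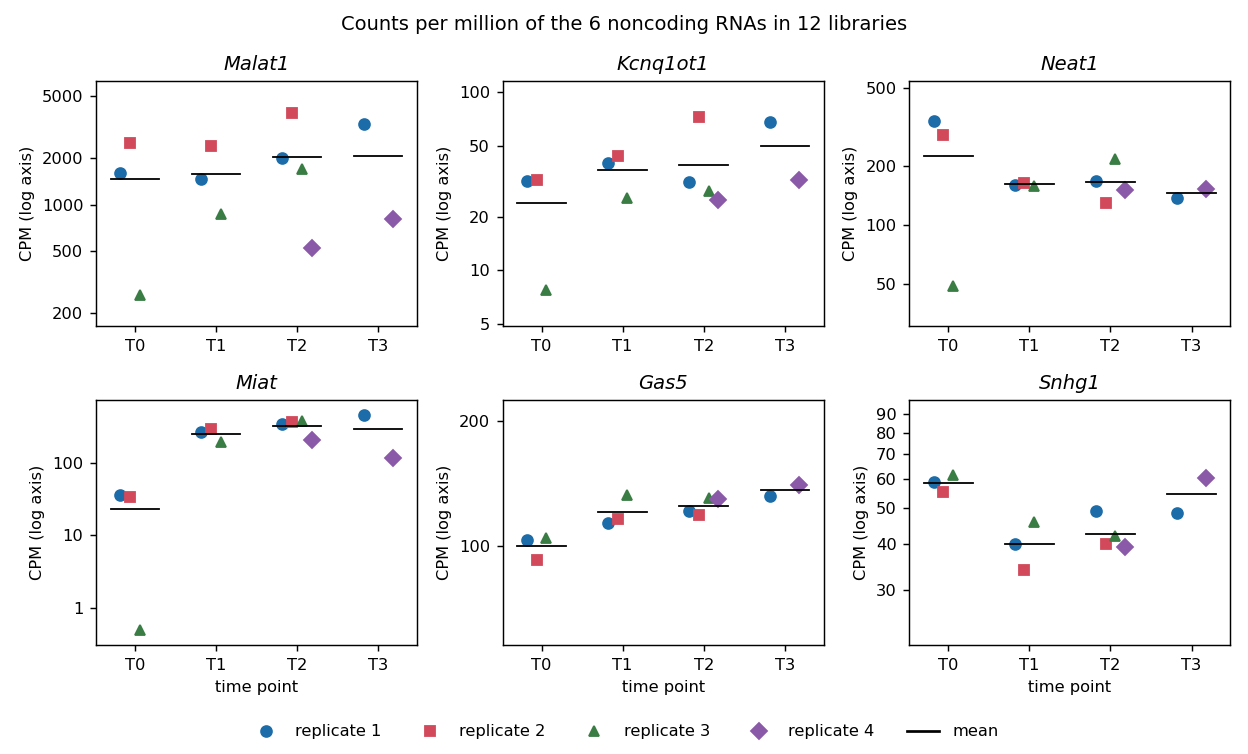
Level of each RNA in CPM in each library on log axes whose ranges differ between panels, by time point, with the replicate number as colour and shape and the mean of the time point as a line. Miat at T1 to T3 lies above all T0 libraries, T0 replicate 3 is lowest in the panels of Malat1, Kcnq1ot1, Neat1 and Miat, and Gas5 stays between 92.65 and 140.5 CPM.

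These calls stand beside those of all genes. At T1 against T0, Miat and Snhg1 passed, 2 of 6, where 31.9% of 12364 genes did. At T2 against T0, Miat, Gas5 and Snhg1 passed, 3 of 6, where 43.3% of 12607 genes did. None passed at T3 against T0 (4.72% of 12721 genes), in T2 against T1 (0.630% of 12382) or in T3 against T2 (1.19% of 12599). At an unadjusted edgeR p under 0.05, 2 members would count at T3 against T0 (Miat and Gas5), 0 in T2 against T1 and 1 in T3 against T2 (Snhg1), and DESeq2 called none of the members in these 3 comparisons. The test for a difference between any time points called Miat (adjusted p = 0.021), Gas5 (0.0215) and Snhg1 (0.0153), where 41.8% of 12952 genes were called. Without T0 replicate 3 the members called were 4 at T1 (50.1% of all genes), 4 at T2 (52.1%) and 3 at T3 (18.4%). Neat1 was added at T1, T2 and T3, Gas5 at T1 and T3, and Miat at T3. With the replicate block, 1 member passed in T2 against T1, where 1.99% of genes did. A share of members near that of all genes says nothing particular about the members. The share of all genes whose libraries do not overlap with those of T0 is not given here. The separation of Miat, Gas5 and Snhg1 from T0 is therefore only a description of those libraries.

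**Figure D3:**
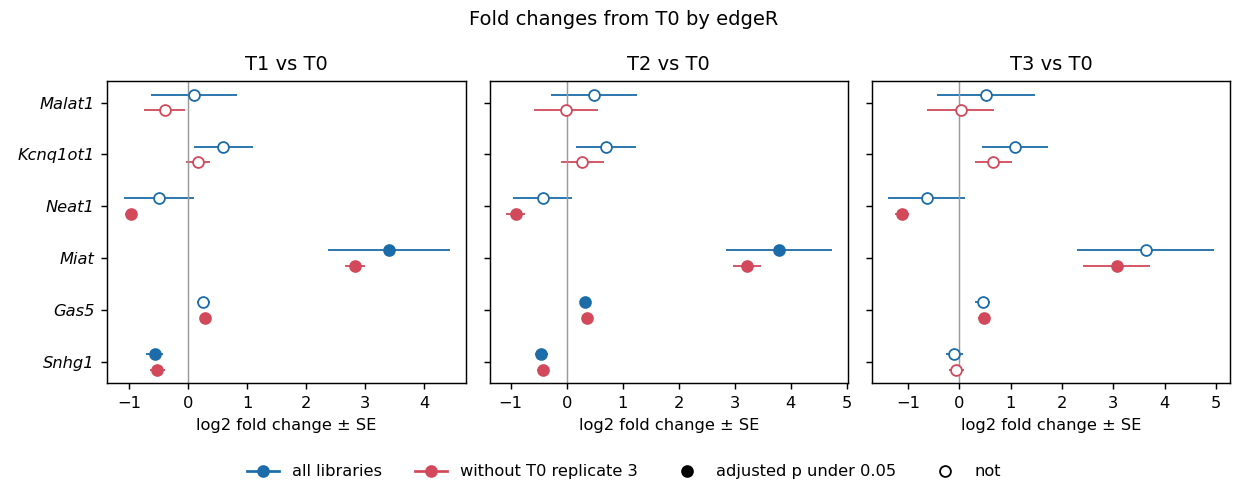
Log2 fold changes from T0 with their standard errors for the 6 RNAs at T1, T2 and T3, with all libraries (blue) and without T0 replicate 3 (red), filled where the adjusted p was under 0.05. Neat1 is filled only without that library, Miat is far to the right in all panels, and Malat1 lies on both sides of 0.

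The spread between libraries of a single time point was then set apart from time, as a description. Around the time point means, the standard deviation of log2 CPM was 1.30 for Malat1, 0.80 for Kcnq1ot1, 0.80 for Neat1 and 1.76 for Miat, against a median of 0.23 over 12952 genes. These 4 RNAs lay at percentiles 99.7, 97.1, 97.1 and 99.98 of that spread. Gas5 (0.09, percentile 5.01) and Snhg1 (0.17, percentile 28.9) lay below the median. Without T0 replicate 3, the standard deviations fell to 1.05 for Malat1, 0.58 for Kcnq1ot1, 0.62 for Miat and 0.22 for Neat1 (percentiles 99.9, 95.4, 96.3 and 64.4). Neat1 then lay near the median of 0.17 over all genes, and Malat1, Kcnq1ot1 and Miat stayed far above it.

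Dividing the sum of squares of log2 CPM between time point, replicate number and the rest separated the RNAs further. For Malat1, time took 6.44% and the replicate number, after time, 80.4%, a share that exceeded those of 99.2% of genes. Kcnq1ot1 had 29.2% and 54.5% (percentile 93). Time took 68.5% for Miat, 81.6% for Gas5 and 74.7% for Snhg1, against a median of 58.4% over all genes, and the number took 13.9% for Miat and 8.89% for Snhg1, with a median of 15.6% over all genes. In Neat1, 79.6% was left to neither. The labels do not say what a number stands for across time points, so the part of the number cannot be assigned to a culture, an extraction or a library preparation.

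**Figure D4:**
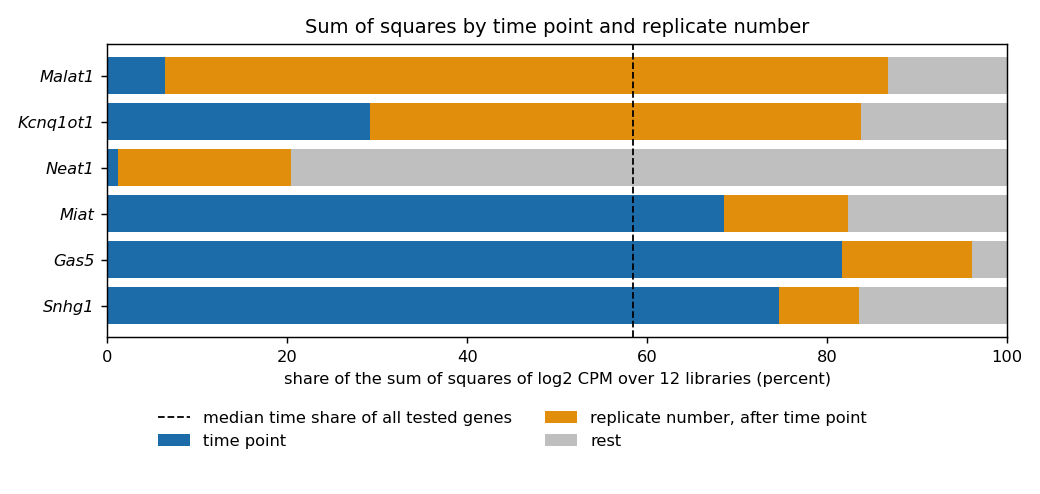
Share of the sum of squares of log2 CPM over 12 libraries that went to time point (blue), to replicate number after time point (orange) and to neither (grey) for each RNA, with the median time share of all tested genes as a dashed line. Time takes 81.6% in Gas5 and 6.44% in Malat1, where the replicate number takes 80.4%.

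Library by library, Malat1 and Kcnq1ot1 deviated together from their time point means (r = 0.93 over 12 libraries, a description, as libraries of a time point share a mean). Other pairs of the nuclear RNAs did so too, with r = 0.91 for Neat1 and Miat, 0.84 for Kcnq1ot1 and Miat and 0.82 for Malat1 and Miat. Values were lower for Neat1 with Kcnq1ot1 (0.61) and with Malat1 (0.58). Malat1 deviated by 0.65, 1.30 and -1.95 at T0 and by 0.02, 0.72 and -0.74 at T1 on the log2 scale. At T2 its deviations were 0.30, 1.27, 0.06 and -1.63, and at T3 1.02 and -1.02. Those of Kcnq1ot1 were 0.66, 0.69 and -1.35 at T0 and 0.16, 0.31 and -0.47 at T1. At T2 they were -0.18, 1.03, -0.35 and -0.50, and at T3 0.54 and -0.54. The share of reads on no gene moved in the same libraries, by 1.95, 2.35 and -4.30 percentage points at T0, -0.12, 1.70 and -1.58 at T1, 0.07, 3.23, -1.23 and -2.07 at T2, and 1.64 and -1.64 at T3. With that share as a covariate in a fit of all 12 libraries, the log2 differences of Malat1 from T0 became -0.33, -0.78 and -1.03 (adjusted p = 0.407, 0.0714 and 0.0729) and those of Kcnq1ot1 0.30, -0.16 and 0.08 at T1, T2 and T3, and none of these passed. In the same fit, the test for any time point called Kcnq1ot1 (adjusted p = 0.0498) and not Malat1 (adjusted p = 0.135). What sets the share was not tested. The deviations of Gas5 went against those of Malat1 (r = -0.71), but the highest and lowest Gas5 libraries of a time point differed by a factor of 1.164 at most.

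**Figure D5:**
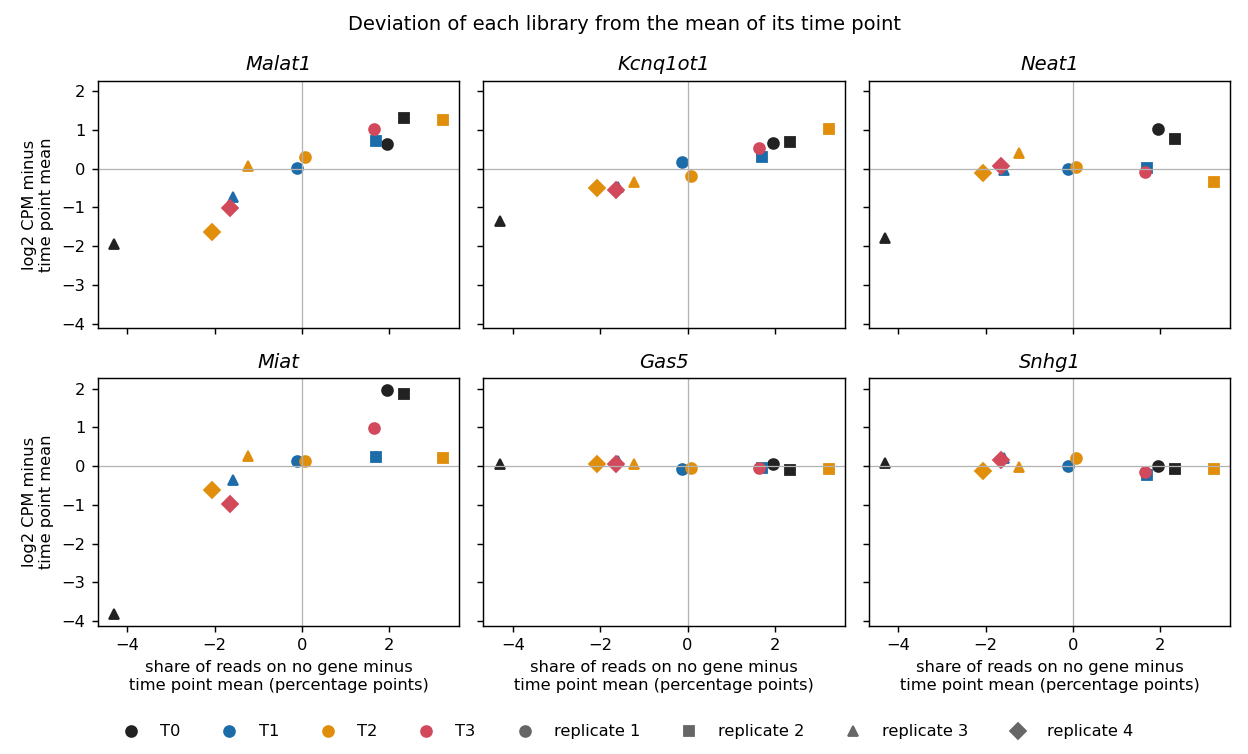
Deviation of each library from the mean of its time point, as log2 CPM of each RNA on the vertical axis and as the share of reads on no gene, in percentage points, on the horizontal axis, with the time point as colour and the replicate number as shape. Malat1 and Kcnq1ot1 run from the lower left, where T0 replicate 3 lies 4.30 points below its mean, to the upper right, while Gas5 and Snhg1 stay close to 0.

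As a ratio of levels, the mean of T0 replicates 1 and 2 exceeded T0 replicate 3 by 7.79-fold for Malat1, 4.13-fold for Kcnq1ot1, 6.47-fold for Neat1 and 70.2-fold for Miat, and was 0.937 and 0.929 of it for Gas5 and Snhg1. T3 replicate 1 exceeded replicate 4 by 4.11-fold for Malat1, 2.12-fold for Kcnq1ot1 and 3.91-fold for Miat, whereas Neat1 stood at 0.904. Neat1 therefore shared the low level of T0 replicate 3 with the other nuclear RNAs and did not share the contrast between the T3 libraries.

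The proteins that meet these RNAs were described by lists, set beside the 2751 lower and 2704 higher calls among 12607 genes at T2 against T0 (3011 and 1576 on the FPKM scale, where the all-gene median was -0.17 in place of 0.00). Of 20 paraspeckle proteins, the partners of Neat1, 13 fell at T2 (median -0.55) and 9 at T1 (median -0.56), and none rose. At T3 none passed (median -0.44). On leaving out T0 replicate 3, 10 fell and Rbm4 rose at T1, 12 fell and Hnrnph1 rose at T2, and 2 fell at T3. Sfpq, a core paraspeckle protein, fell by 0.77 at T2 (SE 0.19, adjusted p = 0.0114), from 721 ± 149 CPM at T0 to 422.6 ± 78.6 CPM. Nono fell by 0.65 (adjusted p = 0.0013) and Pspc1 by 0.79 (adjusted p = 0.00236). Dazap1 and Hnrnpm fell by 0.87 and 0.78. In contrast to Neat1 itself, the summed level of these proteins was highest in T0 replicate 3 (5714 CPM against 4409 and 4469 CPM).

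Of 25 nuclear speckle proteins, 5 fell and 1 rose at T2 (median -0.27), 3 fell at T1 and none passed at T3. With that library left out, 6 fell and 4 rose at T2 (median -0.14), 5 fell and 4 rose at T1, and none passed at T3. Thoc4, an mRNA export factor, fell by 1.00 (adjusted p = 0.0109; 0.58 with it left out) and U2af1, which reads the 3′ splice site, by 0.73 (adjusted p = 0.00792). Sf3b1, a core subunit of the U2 particle, rose by 0.29 (adjusted p = 0.044). Of 8 tested factors that trim or join the 3′ ends of Malat1 and Neat1, 3 fell at both T1 and T2 (medians -0.56 and -0.49). Pop1, a protein subunit of RNase P, fell by 1.51 at T2 (SE 0.28, adjusted p = 0.00306), and Rpp40 of the same enzyme by 1.19. Trnt1, which adds CCA to tRNA ends, fell by 0.53. Of the same 8, 4 fell at both times without T0 replicate 3, and at T2 Pop1 fell by 1.05, Rpp40 by 0.75 and Trnt1 by 0.32.

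Among 5 proteins that bind Miat or act with it, Ptbp2, a splicing regulator of young neurons, rose at T2 by 0.58 (SE 0.09, adjusted p = 0.00173), from 197.7 ± 5.08 to 295.1 ± 14 CPM, and at T1 by 0.56 (adjusted p = 0.00955). The other 4 did not pass. Celf3 differed by 1.40 (adjusted p = 0.0585), Qk by -0.18, Sf1 by -0.29 and Srsf1 by -0.41 at T2. At T3 none of the 5 passed. When T0 replicate 3 was left out, Ptbp2 rose by 0.60 at T2 and 0.57 at T1, Qk fell by 0.27 at T2 (adjusted p = 0.0369) and Srsf1 by 0.23 at T1 (adjusted p = 0.0451).

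In the Kcnq1 domain, 8 of 15 listed genes could be tested. At T2, Tssc4 rose by 1.08 (SE 0.13, adjusted p = 3.84e-04) and Osbpl5 by 1.36 (SE 0.18, adjusted p = 7.71e-04), while Dhcr7, the last enzyme of cholesterol synthesis, fell by 1.52 (SE 0.32, adjusted p = 0.00596) and Nadsyn1, an enzyme of NAD synthesis, by 0.68 (adjusted p = 0.0177). At T1 Osbpl5 rose and Dhcr7 fell, and at T3 Tssc4 rose by 1.39 (adjusted p = 0.0158). The medians of the domain were -0.37, -0.33 and -0.15 at the successive time points. The same 4 genes passed at T2 without T0 replicate 3, with Dhcr7 lower by 0.93, and 5 passed at T1 and 3 at T3. Cdkn1c, the growth inhibitor that Kcnq1ot1 silences on the paternal copy, had 4 counts over all libraries and Phlda2 had 0, so neither could be compared. Alleles were not told apart in these counts.

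Of 8 tested snoRNA host genes beyond the members, 5 fell at T2 and none rose (median -0.40), with 3 lower at T1 (median -0.34) and 0 at T3 (median -0.25). Snhg4 fell by 1.31 (SE 0.12, adjusted p = 1.27e-04), from 42.33 ± 1.07 to 16.98 ± 1.57 CPM. Snhg3 fell by 1.13 (adjusted p = 0.00305), Snhg8 by 0.52, Snhg6 by 0.41 and Snhg5 by 0.39. Snhg12, Snhg7 and Snhg10 had differences of 0.12, 0.24 and 0.64 that did not pass. The same 5 fell at T2 without T0 replicate 3, and Snhg10 rose by 1.02 (adjusted p = 0.00891), 3 fell and 1 rose at T1, and 1 fell at T3. Of the snoRNAs annotated inside the members, Snord47 in Gas5 had 11 to 24 counts in a library and Snord22 in Snhg1 had 49 to 83 at T0, 21 to 48 at T1, 22 to 56 at T2 and 35 to 51 at T3. Polyadenylated libraries capture mature snoRNAs poorly, and reads in these rows can come from the host.

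Of 18 tested translation genes with a TOP tract, 16 fell at T2 (median -0.78) and 11 at T1 (median -0.55), and 1 fell at T3 (median -0.63), with none higher. The counts were 16, 14 and 8 without T0 replicate 3, again with none higher. Npm1, a nucleolar chaperone, fell by 1.42 (SE 0.19, adjusted p = 6.42e-04) at T2, Nap1l1 by 1.16, Eef1b2 by 1.14 and Eif4b by 1.11. Of 10 nonsense-mediated decay factors, 1 fell at T2 (Upf3a, by 0.40, adjusted p = 0.0268) and none passed at T1 or T3 (medians 0.01 and -0.04). Upf1, the helicase of the pathway, differed by -0.18 at T2 (adjusted p = 0.264). Upf3b also passed at T2 without T0 replicate 3, higher by 0.26.

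Among 12 other long noncoding RNAs tested at T2, 1 fell and 4 rose (median 0.10), and at T1 1 fell and 1 rose (median 0.20). Sox2ot, which overlaps the gene of the progenitor factor Sox2, rose by 2.11 (SE 0.51, adjusted p = 0.011), from 6.41 ± 4.17 to 27.6 ± 8.72 CPM, and by 2.85 at T1 (adjusted p = 0.013). Dleu2 rose by 1.42 (adjusted p = 0.023) and Six3os1 by 1.30 (adjusted p = 0.0133). Pvt1, next to Myc, fell by 0.93 (adjusted p = 0.0104), and Tug1 differed by 0.02 (adjusted p = 0.899). At T3, 14 could be tested and 1 rose (median 0.28). Leaving out T0 replicate 3, 1 fell and 3 rose of 13 at T2, 3 fell and 2 rose of 12 at T1, and 1 fell and 1 rose of 13 at T3.

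Genes near the members were compared by position. Slc3a2, an amino acid transporter subunit whose locus lies 126 bases from Snhg1, rose at T2 by 0.64 (adjusted p = 0.0272), where Snhg1 fell, and Wdr74, on the other side, differed by -0.49 (adjusted p = 0.103). Cenpl, a centromere protein 32227 bases from Gas5, which rose, fell by 1.77 (adjusted p = 1.37e-04). Frmd8, 3029 bases from Neat1, fell by 1.03 at T2 (adjusted p = 2.21e-04) and by 0.97 at T1 (adjusted p = 0.00123). In the T0 libraries Frmd8 had 134.8, 126.6 and 148.5 CPM, so that it did not share the low level of Neat1 in replicate 3. Around Miat, Mn1 (756194 bases away) differed by -0.46 at T2 (adjusted p = 0.306, edgeR). Crybb1 (26866 bases away, 128 counts in all) differed by -0.66 (adjusted p = 0.312), and Cryba4 had 15 counts in all. Slc3a2 rose by 0.81 at T2 without T0 replicate 3, and Cenpl and Frmd8 fell by 1.75 and 0.97. Crybb1 then fell by 1.72 at T1 (adjusted p = 0.0104, edgeR) and by 1.09 at T2 (adjusted p = 0.0234). Mn1 fell by 1.105 at T1 (adjusted p = 0.0315) and was not called at T2 (-0.51, adjusted p = 0.263). Tssc4 is the nearest gene on the lower side of the Kcnq1ot1 start that could be tested.

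The genes most like each member over the 12 libraries, by Pearson r of log2 CPM among 10043 genes, were Onecut2 (0.97), Pigg (0.95) and 2410089E03Rik (0.94) for Malat1. For Kcnq1ot1 they were Unc13a (0.97), Inpp4a and Tcf4 (both 0.95). Neat1 was followed by Selenbp1 (0.96), Amph (0.96) and Aqp4 (0.95), Miat by Lrp1, Dzip1 and Lrrtm2 (all 0.99). Gas5 was most like 2410002F23Rik (0.95), Serf2 (0.95) and Jazf1 (0.94), and Snhg1 like Rhbdd1 (0.93), Etv4 (0.93) and Coq3 (0.92). These values rest on libraries that share time points, and they say nothing of shared control.

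When time point means were removed, Malat1 was most like Rbfox2, Onecut2 and Ttll3 (all 0.98) and Kcnq1ot1 like 2310067B10Rik (0.99), Dchs1 and Shank3 (both 0.98). Onecut2 was the gene that both measures named for Malat1. Neat1 was then most like Fbxo44, which had an r of 1.00 after rounding, Dnajb9 and Phkg1 (both 0.99), and Miat most like 2610203C20Rik (1.00 after rounding), Zbtb4 and 4933432B09Rik (both 0.99). The values of Neat1 and Miat rest largely on T0 replicate 3 and were not repeated without it. Neat1 deviated by 1.02, 0.77 and -1.79 at T0 and by 0.42 at most elsewhere. Miat deviated by 1.98, 1.85 and -3.83 at T0 and by 0.98 at most elsewhere. For Gas5 they were 2810002N01Rik (0.96), Grhpr and Atxn10 (both 0.95), and for Snhg1 Metrn (0.93), Terf1 (0.89) and Fcf1 (0.87). Among the members themselves, Gas5 and Snhg1 had r = -0.29 over libraries and 0.47 after time was removed.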

How the data were processed

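RNAseq was measured in 12 libraries. Per the methods and the labels, the authors made TruSeq v2 libraries from polyadenylated RNA, sequenced them on a HiScanSQ and aligned reads to mm9, and their processing notes name CASAVA 1.8, TopHat2 2.0.6, Bowtie 0.12.7.0, HTSeq 0.6.0 and DESeq2 1.0.0. The strand setting was not given in the sources used here. They deposited raw counts for 22609 genes, with 5 rows that name no gene, which entered neither library sizes nor tests. They also deposited FPKM values, whose tool is not given in the sources used here. FPKM columns were matched by name, 0 belonged to other samples, and each correlated best with the counts of its own library.

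Counts were tested with edgeR 4.0.16 in R 4.3.3 (TMM factors, filterByExpr, quasi-likelihood test) on the libraries of the time points compared, with Benjamini-Hochberg adjustment over all genes and a threshold of 0.05. CPM uses TMM-scaled library sizes. Alternatives were DESeq2 1.42.0, limma 3.58.1 on log2(FPKM + 1) and log2(FPKM + 0.1) for genes with a mean FPKM of at least 1, which understates changes of low genes, other filters, left-out libraries, the replicate block and the share of reads on no gene. The fits were tested on simulated data. Groups follow the labels. The main fits held no block. In the fits with the replicate block, libraries were paired by number. Between T1 and T2 the deviations of same-numbered libraries correlated at 0.20, 0.34 and 0.17, but T1 replicate 3 correlated more with T2 replicate 4 (0.37). T0 did not pair with T1 (-0.02, 0.12 and 0.07) or T2 (-0.06, 0.02 and -0.15).

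Members and lists were chosen with earlier results of these data known. Named are all members, the genes of the snoRNA host, Kcnq1 domain, paraspeckle and Miat partner lists, up to 4 genes with the largest T2 change of every other list among calls whose groups do not overlap (average log2 CPM from 1 upwards), the nearest counted genes, snoRNAs inside members, and the 3 genes most like each member (average log2 CPM from 3 upwards). Upf1, Upf3b, Tug1, Sf3b1, Stmn2, Gfap, Fabp7, Sox2, Hes5, Pdgfra, Mog and Sox10 were named after their values were seen. The gene lists without T0 replicate 3 were added after seeing the data. Sequences come from NCBIM37 and RefSeq.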

Additional observations from a re-analysis of the deposited data

Results flagged for a closer look

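Only T2 has enough libraries (4) for a single one to be set against the others by Dixon's test, and 9 groups of values were examined, of which chance would mark about 1 in 20. Malat1 and Kcnq1ot1 were not among them, since they were chosen for their spread between libraries. Miat in T2 replicate 4 had 14.67 FPKM, and its gap to the nearest T2 library was 0.865 of the range, above the 95% critical value. In CPM the same library was lowest for Miat too, at 203 CPM, but the gap was 0.794 of the range and did not pass.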

How the results depend on the processing

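DESeq2 size factors and DESeq2 itself left the number of members called as it was in every comparison, and with no filter on low counts Gas5 was lost at T2 against T0 and for any time point, which left 2 of 3. At T1 against T0 (2 called) the number was 1 with at least 10 counts in every library, where Miat drops out and 3586 of 11464 genes were called. It was 1 on the FPKM scale with either pseudocount or without a filter (2661 of 13254 genes with a pseudocount of 1). With libraries numbered 1 and 2 only it was 5, where 7462 of 12468 genes were called. On leaving out a library it was 0 to 4, with 1750 to 6290 genes called. At T2 against T0 (3) it was 1 on the FPKM scale (4587 of 13360 genes with a pseudocount of 1). It was 5 in the fit of all 12 libraries with the replicate block, which added Malat1 and Kcnq1ot1 and called 6582 of 12952 genes. Leaving out a library gave 0 to 3 at T3 against T0 (0), 0 to 1 in T3 against T2 (0) and 1 to 4 for any time point (3), which was 1 on the FPKM scale. At T3 against T0, the fit of all 12 libraries called 2, that with the share of reads on no gene as covariate 2, and that with the replicate block 3 (Kcnq1ot1, Miat and Gas5). Of 12952 genes, these fits called 3865, 3852 and 3260. A fit of 9 libraries was chosen after seeing the data, without T0 replicate 3 and both libraries numbered 4. It called 4 at T1, where 5952 of 13078 genes were called, and it left T3 with a single library.

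The replicate numbers of T0 did not pair with those of T1 or T2. With the replicate block, 1 member was called at T1 against T0 (Snhg1), where 3372 of 12364 genes were called. At T2 against T0 it was 0, where all genes called fell to 3157, and in T2 against T1 it was 1 (Malat1), where 246 of 12382 genes were called. The block could not be fitted for T3 against T0, and in T3 against T2 it rests on 2 pairs and changed no member's call.

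Directions turned for differences that had not passed. For Malat1, the T1 value was -0.10 with libraries numbered 1 and 2, -0.33 with the covariate, -0.41 in the 9-library fit and -0.40 to 0.74 on leaving out a library. With the covariate it was -0.78 at T2, -1.03 at T3, -0.45 in T2 against T1 and -0.26 in T3 against T2, and on leaving out a library -0.049 to 1.13, -0.83 to 1.20, -0.16 to 0.79 and -1.32 to 0.72. On the FPKM scale the last was -0.20. With the covariate, Kcnq1ot1 was -0.16 at T2 and -0.46 in T2 against T1, and on leaving out a library -0.38 to 0.27 there and -0.26 to 0.86 in T3 against T2. Neat1 was 0.34 at T3 and 0.48 or 0.49 in T3 against T2 on the FPKM scale, and -0.12 with libraries numbered 1 and 2, -0.21 with the covariate and -0.11 to 0.16 on leaving out a library in T2 against T1. Miat was -0.24 with the covariate in T2 against T1, and 0.35 in the 9-library fit and -1.45 to 0.51 on leaving out a library in T3 against T2. Snhg1 was 0.0041 with the covariate and -0.26 to 0.063 on leaving out a library at T3, and -0.014 to 0.21 in T2 against T1. The cause was not tested. Calls over all genes moved too, from 600 to 2029 by DESeq2 and 102 on the FPKM scale at T3 against T0, from 78 to 316 and 5 in T2 against T1, and from 150 to 765 and 12 in T3 against T2. Leaving out a library gave 1750 to 6290 at T1 (3949), 0 to 2317 at T3, 9 to 68 in T2 against T1 and 1 to 1347 in T3 against T2. The spread of Miat was 0.79 on the FPKM scale. Only 2 libraries set the precision at T3. Libraries numbered 1 and 2 only were not run for T3.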
